A study of Danio rerio with 10 samples.

Results

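The neuromuscular junction is the synapse at which a motor neuron releases acetylcholine onto a muscle fibre. The 7 genes described here are chrna1, chrnb1, chrnd and chrng, which encode alpha, beta, delta and gamma subunits of the muscle acetylcholine receptor, and musk, rapsn and agrn, whose products gather that receptor into clusters. They were picked by symbol for their role at the synapse from the 14650 genes of the count table, with earlier results of these data known. All 7 are listed there, and 6 had enough reads to be tested among 11871 genes; chrng had no read in any library.

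The muscle receptor is a ring of 5 subunits around a cation channel, in which alpha subunits bind acetylcholine at their borders with delta and with gamma or epsilon. Gamma is the embryonic and epsilon the adult form in mammals. Agrin, a matrix proteoglycan released by motor axons and made by other tissues too, acts through the co-receptor Lrp4 on the muscle receptor kinase MuSK, and the scaffold protein rapsyn then holds receptors together at the membrane. In zebrafish, receptor clusters form in the middle of muscle fibres before motor axons reach them, a step that needs musk, the gene of the unplugged mutant. Zebrafish mutants of chrna1 (nic1), chrnd (sofa potato) and rapsn (twitch once) were found by their defective swimming.

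RNA-seq was made from whole embryos at the stage of 17 to 18 somites, kept at 28 °C. Of the 2 groups, wild type was of the ABTU strain and the other was labelled a TPC2 mutant, a line with a lesion in tpcn2, the gene of a cation channel of lysosomes and endosomes. Each had 5 biological replicates according to the series' design text. The sources used here give neither the allele, nor the number of embryos in a sample, nor whether wild type and mutant were siblings, so the genotype cannot be told apart from strain background or clutch.

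Libraries held 17890367 to 22498643 counts. The label was checked with tpcn2, which was at 47.1 to 81.1 CPM (read counts scaled by library size and composition) in wild-type libraries but only 6.72 to 10.3 CPM in mutant libraries. Wild-type replicate 1 stood apart on the second principal component of all tested genes (33.3, against -17.0 to -0.71 in the other wild-type libraries), and the counts for gene lists that differ without it are given below. Of 30 skeletal muscle marker genes listed, none was at 0 in all libraries, and their summed level ran from 7508 to 9701 CPM among wild-type libraries and from 7099 to 8404 CPM among mutant libraries.

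Of the 6 tested genes, 3 fell in the mutant and 0 rose (edgeR's quasi-likelihood test, adjusted p under 0.05), in a comparison in which 42.2% of all tested genes passed, 21.6% lower and 20.6% higher. The genes that fell were chrna1, musk and, by a small amount, chrnd. At an unadjusted p under 0.05 the counts were 4 lower and 0 higher, and DESeq2 and limma-voom both gave 3 lower and 0 higher. For 2 of the 6, chrna1 and musk, every mutant library was below every wild-type library, as for 15.0% of all tested genes (28.7% had no overlap in either direction). The median log2 fold change of the 6 genes was -0.21, against -0.00114 for all tested genes. With 6 genes, a share of calls this close to that of the whole table is not a result about the group. In whole embryos, fewer muscle cells and less RNA per muscle cell cannot be told apart.

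chrna1, the alpha subunit gene, showed the largest difference of the 6. Its levels in wild-type replicates 1 to 5 were 48.1, 64.0, 43.1, 52.3 and 57.3 CPM, and those in mutant replicates 1 to 5 were 24.5, 33.2, 34.0, 34.0 and 27.3 CPM. The groups did not overlap, and the lowest wild-type library lay well above the highest mutant library. The wild-type mean was 53.0 ± 8.1 CPM and the mutant mean 30.6 ± 4.42 CPM (SD, n = 5), so that the fitted mutant level was 0.578 times the wild-type level. The log2 fold change was -0.79 ± 0.138 (SE), with an adjusted p of 8.61e-05 by edgeR and a 95% interval of -1.04 to -0.54 by limma-voom. Among all genes, 567 (4.78% of those tested) passed with a decrease at least as large.

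chrnd, the delta subunit gene, was at 30.8, 33.2, 29.4, 30.8 and 34.9 CPM in wild-type replicates 1 to 5 and at 26.2, 27.6, 29.7, 28.9 and 27.5 CPM in mutant replicates 1 to 5. The groups met at their edges, since mutant replicate 3 lay above wild-type replicate 3. The wild-type mean was 31.8 ± 2.19 CPM and the mutant mean 28.0 ± 1.34 CPM (SD, n = 5). On the log2 scale chrnd fell by 0.18 ± 0.0536 (SE; edgeR adjusted p = 0.0438), to 0.88 times the wild-type level. This call stood close to the threshold. It ended when wild-type replicate 2 (adjusted p = 0.0889), 4 (0.0534) or 5 (0.113) or mutant replicate 1 (0.104), 2 (0.0802), 4 (0.0553) or 5 (0.0847) was left out, and with no filter on low counts (0.055).

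chrnb1, the beta subunit gene, did not pass. It was at 12.2, 17.1, 12.6, 14.2 and 12.3 CPM in wild-type replicates 1 to 5 and at 11.6, 10.5, 12.2, 11.6 and 12.2 CPM in mutant replicates 1 to 5. Wild-type replicate 2 was the highest, and the lowest wild-type value lay within the mutant range. The log2 fold change was -0.24 ± 0.0995 (SE; edgeR adjusted p = 0.0877, unadjusted 0.0425), with a 95% interval of -0.46 to -0.00113 by limma-voom that is not adjusted for the number of genes. The data thus leave room for a level between 0.726 times and about equal to that of wild type.

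No read was counted for chrng, the gamma subunit gene, in any of the 10 libraries. A count of 0 allows at most 3 counts in a library, which is 0.134 to 0.167 CPM, for counting error only. It is 1 of 522 genes (3.56%) of the table without a read. chrne, the epsilon subunit gene, had 76 to 173 reads per library. It ranged from 5.51 to 8.23 CPM among wild-type libraries and from 4.24 to 6.13 CPM among mutant libraries, with overlap, and missed the threshold (log2 fold change -0.30 ± 0.144, SE; edgeR adjusted p = 0.122). How reads of the similar subunit genes were assigned is not given in the sources used here, so these values hold for the symbols as counted. chrnb1l, the second beta subunit gene, had 4 to 19 reads per library and was too low to be tested.

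**Figure D1:**
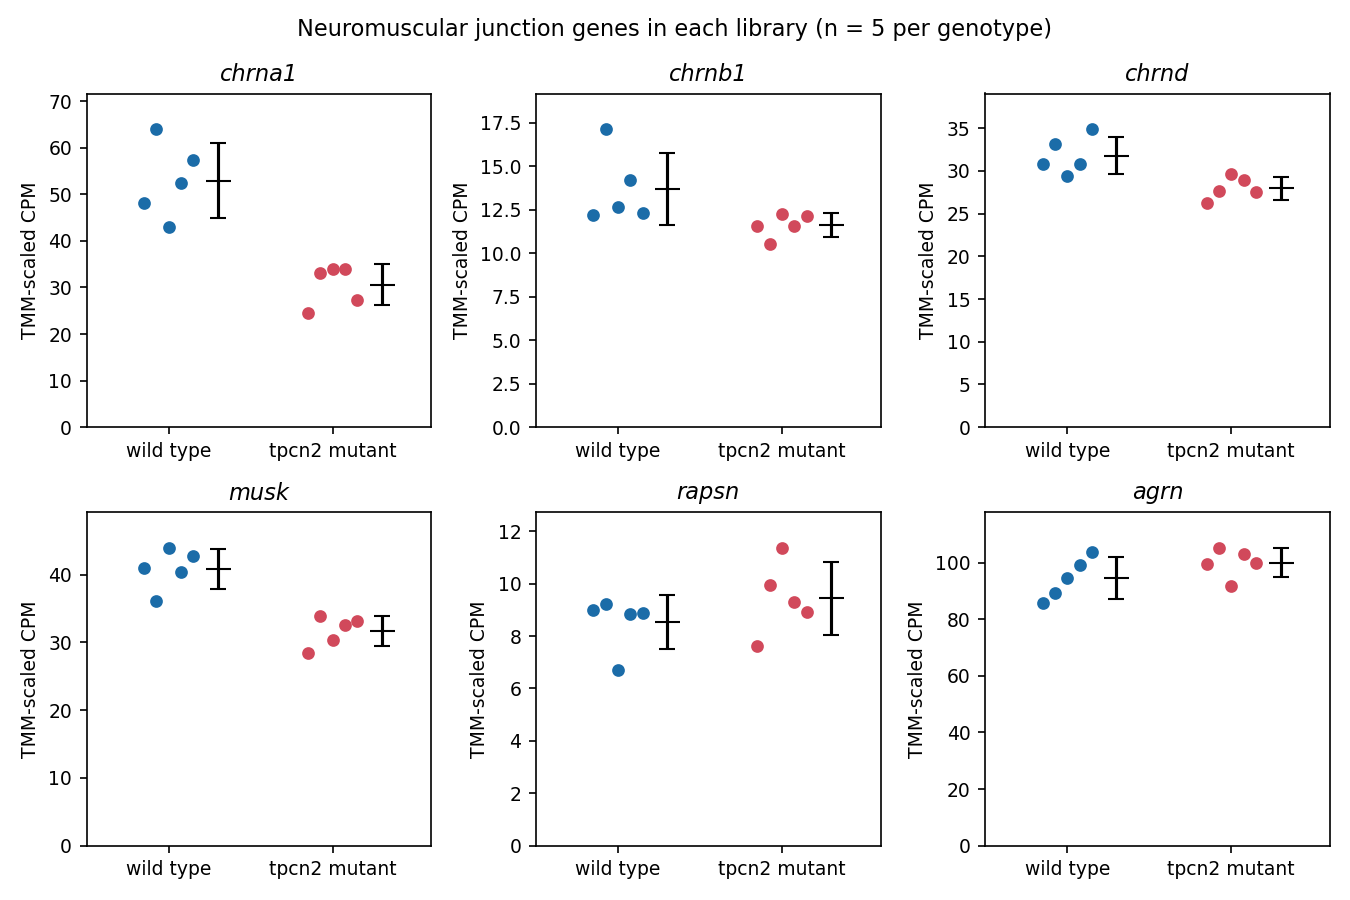
Level of each tested junction gene (vertical axis, TMM-scaled CPM, from 0) in the 5 wild-type (blue) and 5 tpcn2 mutant (red) libraries. Points are libraries in the order of their replicate number, and the black mark and bar are the mean ± SD. chrna1 and musk have no overlap between genotypes, chrnd and chrnb1 overlap at their edges, and rapsn and agrn overlap broadly.

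musk, the gene of the receptor kinase on the muscle membrane, was lower in every mutant library than in any wild-type library. It was at 41.0, 36.2, 44.0, 40.5 and 42.7 CPM in wild-type replicates 1 to 5 and at 28.5, 33.9, 30.4, 32.5 and 33.1 CPM in mutant replicates 1 to 5. The means were 40.9 ± 2.97 and 31.7 ± 2.23 CPM (SD, n = 5). The log2 fold change of -0.37 ± 0.0666 (SE) had an adjusted p of 0.00103 by edgeR, and the mutant level was 0.776 times the wild-type level.

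rapsn, the gene of the scaffold protein under the receptor, had the fewest reads of the tested genes, 125 to 223 per library. It was at 8.99, 9.23, 6.69, 8.82 and 8.89 CPM in wild-type replicates 1 to 5 and at 7.61, 9.96, 11.4, 9.30 and 8.92 CPM in mutant replicates 1 to 5. Wild-type replicate 3 was low and mutant replicate 3 high, and the remaining libraries of both groups overlapped. It did not pass (log2 fold change 0.15 ± 0.126, SE; edgeR adjusted p = 0.375). The 95% interval by limma-voom, -0.13 to 0.42 on the log2 scale, leaves room for a mutant level of 0.916 to 1.33 times that of wild type.

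agrn, the gene of agrin, was the best covered, with 1614 to 2325 reads per library. It was at 85.8, 89.3, 94.5, 99.3 and 103.9 CPM in wild-type replicates 1 to 5 and at 99.3, 105.2, 91.8, 103.1 and 99.95 CPM in mutant replicates 1 to 5, with wide overlap. The log2 fold change of 0.08 ± 0.06 (SE) did not pass (edgeR adjusted p = 0.308). Its 95% interval by limma-voom, -0.05 to 0.21, was narrower than that of any other tested member, so a mutant level below 0.967 or above 1.16 times that of wild type lies outside it.

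**Figure D2:**
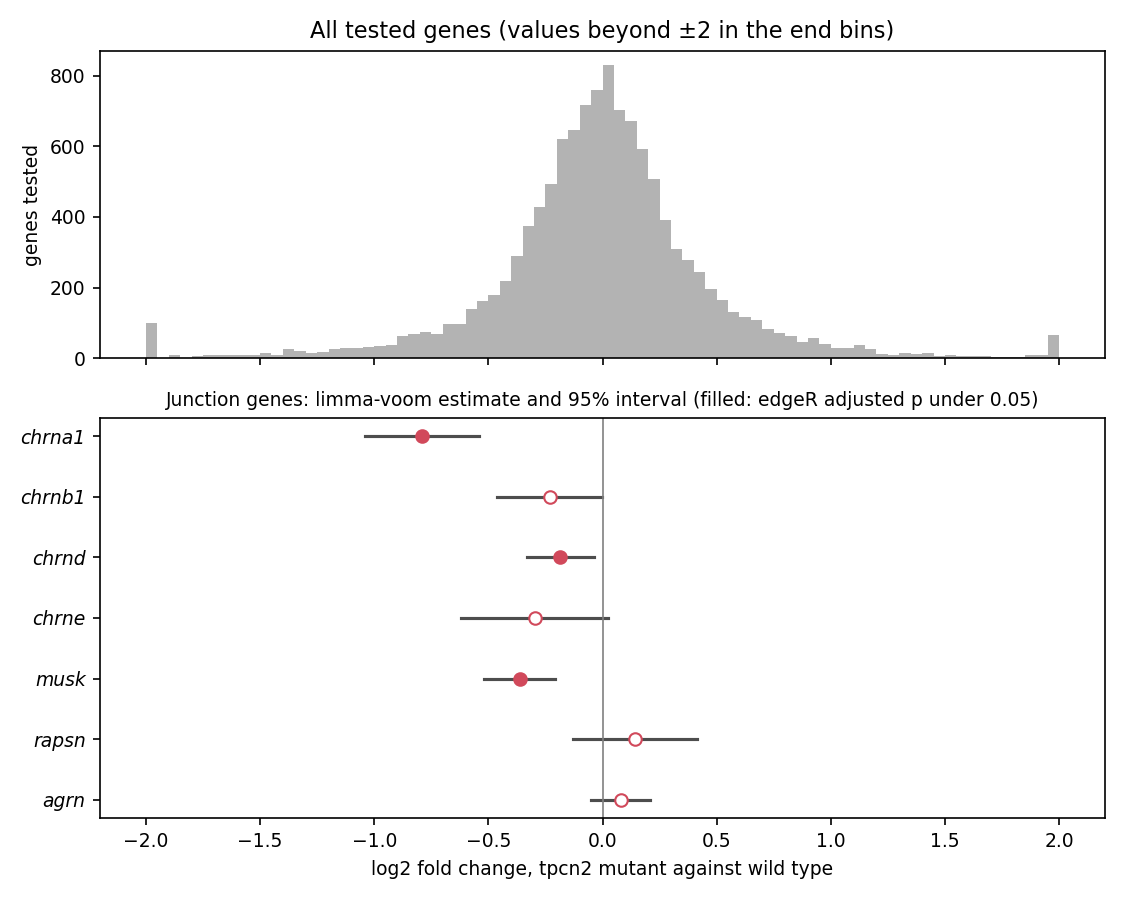
Upper panel: histogram of edgeR log2 fold changes (mutant against wild type) of the 11871 tested genes. Lower panel: limma-voom estimate and 95% interval of the junction genes and chrne on the same axis, filled where edgeR's adjusted p is under 0.05. chrna1 lies in the left tail of the histogram and the other genes lie in its central part.

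The spread between libraries was not the same for each gene. In wild type the coefficient of variation was 15.3% for chrna1 and 15.2% for chrnb1, against 6.90% for chrnd, 7.28% for musk and 7.71% for agrn. Counting error alone would give 3.05% for chrna1 and 6.02% for chrnb1, so most of their spread is between samples. In the mutant chrnb1 varied by 5.85%, about its counting error of 6.63%. rapsn varied by 12.1% in wild type and 14.6% in the mutant, where counting error would give 7.62% and 7.33%.

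Several of these genes were high or low in the same libraries. Wild-type replicate 2 held the highest wild-type values of chrna1, chrnb1, rapsn and chrne, and also the highest median of the skeletal muscle markers (7.01 on the log2 CPM scale, against 6.45 to 6.94 in the other wild-type libraries). It held the lowest wild-type value of musk. Mutant replicate 1 held the lowest mutant values of chrna1, chrnd, musk and rapsn, and the lowest mutant median of the muscle markers (6.27, against 6.34 to 6.54). The part of muscle content in these library differences was not tested.

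**Figure D3:**
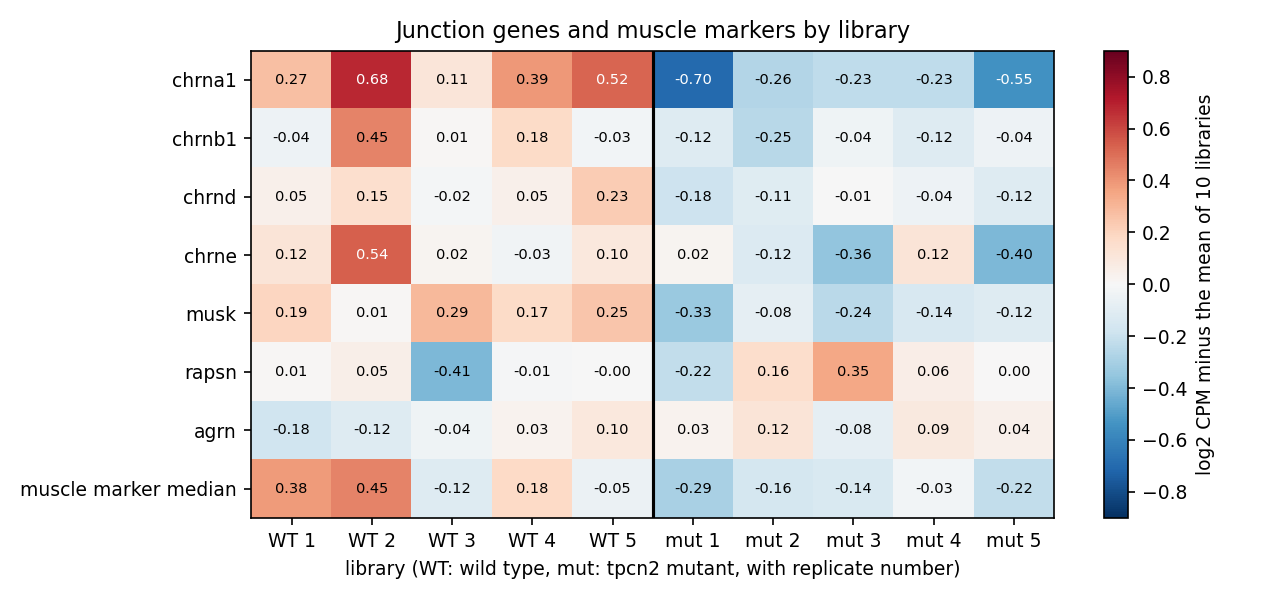
Log2 CPM of each junction gene, of chrne and of the median skeletal muscle marker in each library, after subtracting the row's mean over the 10 libraries (colour and printed value; red above, blue below). chrna1 is above its mean in the 5 wild-type libraries and below it in the 5 mutant libraries, and the muscle marker median is highest in wild-type replicates 1 and 2.

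Ratios within a library show how the genes stood to each other without any scaling between libraries. The log2 ratio of each gene to chrna1 is given as a description with no test, since chrna1 was taken as the denominator with its decrease known and a gene that changed less than chrna1 has to be higher relative to it. The log2 ratio of chrnd to chrna1 averaged -0.72 ± 0.149 over wild-type libraries and -0.12 ± 0.162 over mutant libraries (SD, n = 5), a difference of 0.61 ± 0.0983 (SE), or 1.52-fold. For chrnb1 the difference was 0.56 ± 0.134. These subunit ratios did not overlap between the groups, but neither did the level of chrna1 itself. How many of all tested genes lack overlap relative to chrna1 was not computed, so the missing overlap is a description too. The difference in log2 ratio was 0.93 ± 0.0813 for rapsn and 0.87 ± 0.147 for agrn, also without overlap, and 0.42 ± 0.162 for musk with overlap.

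Ratios to the median of skeletal muscle markers were tested by two-sided exact permutation of libraries. They set each junction gene beside other genes of the tissue that holds the receptor. The median is the level of the marker of middle rank in each library. That marker was a creatine kinase gene, ckma or ckmb, or the troponin gene tnnc2. Their log2 fold changes were -0.38, -0.65 and -0.24, so the median does not stand for muscle transcripts as a whole. The median log2 CPM of 27 tested muscle markers averaged 6.73 ± 0.251 over wild-type libraries and 6.39 ± 0.0989 over mutant libraries (SD, n = 5). The difference was -0.34 (exact permutation, p = 0.0317). The mean log2 CPM of the same markers ran from 5.76 to 6.18 among wild-type and from 5.61 to 5.90 among mutant libraries. The median of the markers' log2 fold changes was -0.24, smaller in size than the difference of the median level. The markers were chosen with earlier results of these data known. Neither this p-value nor those of the ratios to the markers are therefore independent support for a difference. Of these markers 13 fell and 0 rose by edgeR, so that 48.1% passed where the whole table gave 42.2% in either direction and 21.6% lower (15 and 0 at an unadjusted p under 0.05, 13 and 0 by DESeq2, 12 and 0 by limma-voom), among them the actin gene acta1a (-0.63), the creatine kinase gene ckmb (-0.65) and the slow fibre myosin light chain gene myl10 (-0.34), given as log2 fold changes. Without wild-type replicate 1, 12 fell and 1 rose. The remaining markers did not pass, and some were higher on average in the mutant. The most abundant marker, the actin gene actc1b, averaged 1709 ± 208 (wild type) and 1830 ± 99.7 CPM (mutant; edgeR adjusted p = 0.297). For actc1a the means were 1033 ± 253 and 1103 ± 56.3 CPM (edgeR adjusted p = 0.565). The log2 fold changes of tnnt3a (0.47), myhz2 (0.18) and tnnc1b (0.14) were also above 0 (edgeR adjusted p = 0.148, 0.294 and 0.324). Of the 27 markers, 1 had a lower log2 fold change than chrna1, the parvalbumin gene pvalb2 (-1.33), and 7 had a lower one than musk.

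Relative to the muscle marker median, the junction genes fell into different positions. chrna1 was lower in the mutant by 0.45 ± 0.125 on the log2 scale (SE; exact permutation, adjusted p = 0.0714 over 6 ratios, unadjusted 0.0238), which did not pass. It passed under 2 of 13 alternatives, when the mean of the markers replaced their median (exact permutation, adjusted p = 0.0238) and without wild-type replicate 1 (0.0476). Without any 1 of the 9 other libraries it did not pass (exact permutation, adjusted p of 0.0635 to 0.143). The floor given below for rapsn holds for these fits too, so not passing in them does not single out those libraries. Without 1 library the chrna1 difference stayed between -0.54 and -0.37. The ratio of musk to the markers differed by -0.03 ± 0.162 between genotypes (exact permutation, adjusted p = 0.849), and those of chrnd (0.15 ± 0.12) and chrnb1 (0.11 ± 0.113) did not pass either (exact permutation, adjusted p = 0.333 and 0.495). The ratio of rapsn was higher in the mutant by 0.48 ± 0.112 (exact permutation, adjusted p = 0.0476), and that of agrn by 0.42 ± 0.161 without passing (exact permutation, adjusted p = 0.0794). Set against the mean of the markers instead, both were smaller. The difference was then 0.35 for rapsn (exact permutation, adjusted p = 0.0238) and 0.29 for agrn (0.0794). The marker median itself differed by -0.34, and a gene that fell less than this median has to be higher relative to it. The level of rapsn did not pass by itself (log2 fold change 0.15, edgeR adjusted p = 0.375). The call of the rapsn ratio was kept without wild-type replicate 1. It ended without any of the 9 other libraries (exact permutation, adjusted p of 0.0635 to 0.0952), where 4 against 5 libraries allow no unadjusted p below 0.0159. A ratio alone at that floor would adjust to 0.0952 over 6 ratios, so the loss does not single out those libraries. Without 1 library the difference stayed between 0.41 and 0.55.

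**Figure D4:**
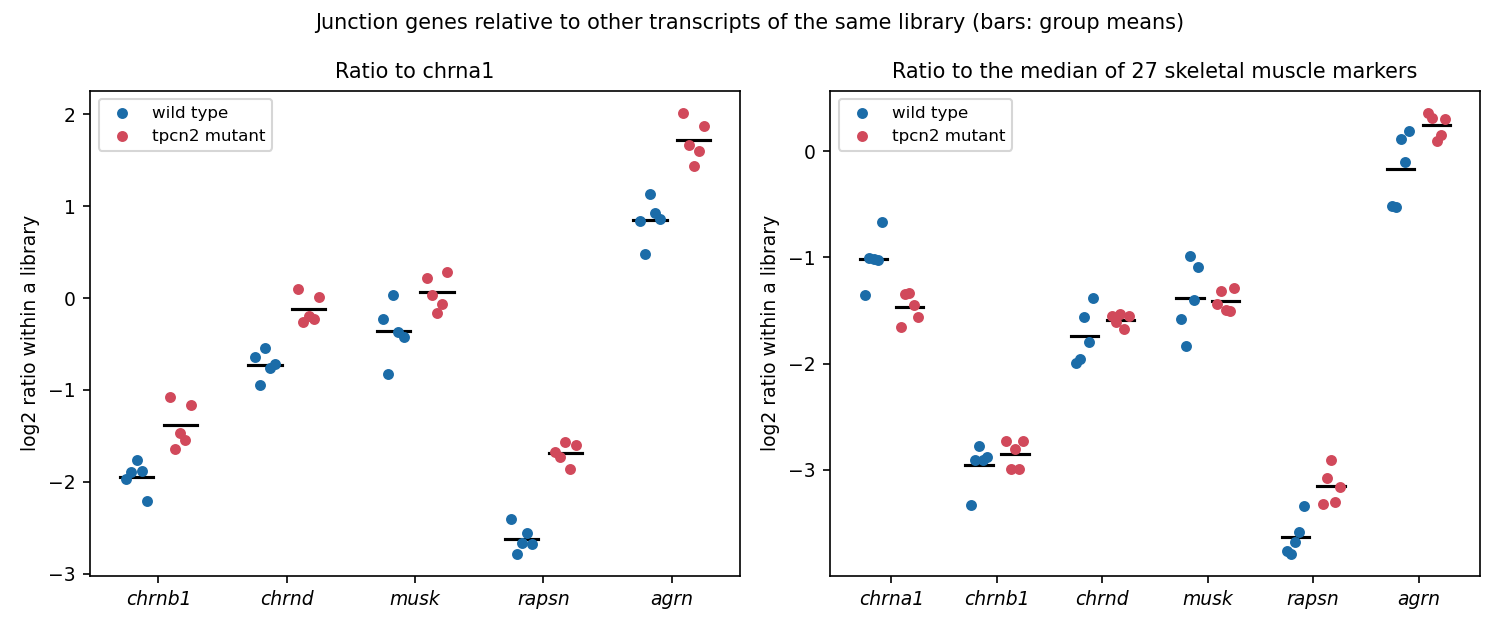
Log2 ratio within each library of the junction genes to chrna1 (left) and to the median of 27 skeletal muscle markers (right); points are libraries, wild type in blue and tpcn2 mutant in red, and bars are group means. Relative to chrna1, whose own level has no overlap between genotypes, chrnb1, chrnd, rapsn and agrn are higher in all mutant libraries. Relative to the muscle markers, chrna1 is lower on average and rapsn higher.

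Other genes of the junction were taken as lists. Of 11 nicotinic receptor subunit genes outside the 7 that are in the count table, 4 were tested and the rest had too few reads. Of the 4 tested, 0 passed by edgeR, where the whole table gave 42.2% (also 0 at an unadjusted p under 0.05 and 0 by DESeq2 and limma-voom). With 4 genes this is not a result about these subunits. Besides chrne the tested genes are chrna4b, chrna5 and chrnb3a, subunits of neuronal receptors, each at 1.24 to 2.65 CPM on average in both groups.

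Among 29 tested partners of agrin and MuSK, 6 rose and 1 fell, so that 24.1% passed where the whole table gave 42.2%. The adaptor gene crkl rose from 105.3 ± 3.24 to 132 ± 6.98 CPM (SD, n = 5; edgeR adjusted p = 9.93e-05); in mouse muscle its product is recruited downstream of MuSK. nrg2a, a neuregulin gene, rose from 3.50 ± 0.488 to 5.23 ± 0.438 CPM (edgeR adjusted p = 0.00416), and the Wnt ligand gene listed as wnt11, which RefSeq now names wnt11f2, rose from 11.4 ± 1.27 to 19.0 ± 2.39 CPM (edgeR adjusted p = 8.80e-05). The small GTPase gene rac1b fell by 0.17 on the log2 scale (edgeR adjusted p = 0.0428). wnt11r, a Wnt gene known in zebrafish to act through MuSK, was singled out after its values were seen. It averaged 110 ± 8.06 and 121 ± 4.8 CPM, without passing (edgeR adjusted p = 0.0578). wnt4a of the same list, also singled out afterwards, was lower on average in the mutant without passing (log2 fold change -0.15, edgeR adjusted p = 0.165). Without wild-type replicate 1, 8 rose and 2 fell. lrp4 and the dok7 genes were not analysed here.

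In the synaptic cleft, ache, the gene of the enzyme that breaks down acetylcholine, averaged 5.97 ± 0.781 CPM over wild-type libraries and 5.07 ± 0.872 CPM over mutant libraries, without passing (edgeR adjusted p = 0.206). Of 8 tested genes of the basal lamina list 2 rose and 0 fell by edgeR, 25.0% against 42.2% over the whole table (3 and 1 at an unadjusted p under 0.05, 2 and 0 by DESeq2 and by limma-voom). The collagen IV gene col4a5 rose from 19.98 ± 4.38 to 75.0 ± 2.91 CPM (log2 fold change 1.91 ± 0.141, SE; edgeR adjusted p = 3.33e-08), with no overlap between groups. The laminin gene lama5 rose by 0.23 ± 0.108 (edgeR adjusted p = 0.0486). Without wild-type replicate 1, 2 rose and 1 fell. Both genes are also expressed in basement membranes outside muscle. colq was not analysed here.

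Of 15 tested genes of the dystrophin complex, which links the muscle membrane to its matrix, 3 fell and 2 rose, which is 33.3% against 42.2% over the whole table. Leaving out wild-type replicate 1 gave 4 lower and 3 higher. The sarcoglycan genes went in both directions, sgce (-0.42 ± 0.0765) and sgcg (-0.41 ± 0.123) falling and sgcb (0.46 ± 0.088) rising (log2 fold change and SE; edgeR adjusted p = 8.71e-04, 0.0243 and 0.00351). dtna, an alpha-dystrobrevin gene, fell by 0.49 and dag1, the dystroglycan gene, rose from 485 ± 47.8 to 607 ± 32.4 CPM (edgeR adjusted p = 0.0316 and 0.00109). dmd, the dystrophin gene itself, averaged 69.2 ± 2.76 and 74.7 ± 7.22 CPM, without passing (edgeR adjusted p = 0.195). utrn was not analysed here.

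On the nerve side, 3 of 16 tested genes of the cholinergic terminal fell and 2 rose, which is 31.2% against 42.2% over the whole table. With wild-type replicate 1 left out the counts were 3 lower and 1 higher. chata, which encodes the enzyme that makes acetylcholine, was low in both groups and fell from 0.906 ± 0.211 to 0.343 ± 0.122 CPM (SD, n = 5; edgeR adjusted p = 0.00357). The genes of the vesicle fusion machinery snap25a (13.8 ± 1.09 to 6.97 ± 1.23 CPM) and stxbp1a (14.1 ± 0.872 to 9.95 ± 1.26 CPM) fell as well (edgeR adjusted p = 2.51e-05 and 0.00127). cacna1ba, a gene of the calcium channels that trigger transmitter release, rose from 4.98 ± 2.72 to 18.9 ± 4.08 CPM, and cplx2, a complexin gene, rose from 1.07 ± 0.355 to 1.87 ± 0.527 CPM (edgeR adjusted p = 7.25e-05 and 0.0308). snap25a and stxbp1a are expressed by neurons in general, and of 12 neural progenitor and neuron markers 9 fell and 1 rose (83.3%, against 42.2% of the whole table), or 9 and 0 when wild-type replicate 1 was left out (their summed level ran from 1414 to 1670 CPM among wild-type libraries and from 1207 to 1370 CPM among mutant libraries). The part of these other neurons in the decreases was not tested. Of 11 motor neuron markers isl2b fell (-0.74) and isl2a rose (0.31), which is 18.2%, and their summed level ran from 136 to 155 CPM among wild-type and from 126 to 141 CPM among mutant libraries.

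Downstream of the receptor, 16 genes of muscle excitation and calcium release were tested, of which 7 were lower and 2 higher. These make 56.2%, where the whole table gave 42.2%. The calcium channel subunit genes cacnb1 (-0.44 ± 0.102) and cacna2d1a (-0.53 ± 0.145) and srl, the gene of sarcalumenin in the sarcoplasmic reticulum (-0.44 ± 0.085), fell (log2 fold change and SE; edgeR adjusted p = 0.00601, 0.00448 and 4.59e-04). Of the junctophilin genes, whose products tie the plasma membrane to the calcium store, jph2 (0.65 ± 0.114) and jph1a (1.42 ± 0.343) rose (edgeR adjusted p = 5.32e-04 and 0.00931). The level of jph1a was low, at 0.342 ± 0.202 and 0.932 ± 0.282 CPM (SD, n = 5), and the groups overlapped. It had 3 to 14 reads per wild-type library and 10 to 26 per mutant library. jph1b, which had more reads, averaged 5.15 ± 0.977 and 5.23 ± 1.11 CPM, without passing (edgeR adjusted p = 0.926; singled out after its values were seen).

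Of the 17 myogenic regulators, among which MyoD family factors are known in mammals and birds to drive receptor subunit genes, 3 rose and 2 fell, which is 29.4% against 42.2% over the whole table. Leaving out wild-type replicate 1 gave 4 higher and 2 lower. myog, the myogenin gene, fell from 154 ± 11.3 to 133 ± 3.64 CPM and myf5 rose from 38.5 ± 8.54 to 62.4 ± 4.85 CPM (edgeR adjusted p = 0.00492 and 5.02e-04). srfb, a serum response factor gene, fell by 0.77 and six1a and tcf3a rose by 0.39 and 0.18 on the log2 scale (edgeR adjusted p = 0.0178, 0.00526 and 0.0105). The level of srfb was low, at 1.56 ± 0.344 and 0.912 ± 0.163 CPM. The other serum response factor gene, srfa, averaged 8.41 ± 1.61 and 7.83 ± 0.532 CPM, without passing (edgeR adjusted p = 0.573). myod1 averaged 72.0 ± 5.91 and 70.04 ± 3.83 CPM, without passing (edgeR adjusted p = 0.651; singled out after its values were seen).

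Markers of other cells of the embryo were counted as well. Of 10 notochord and floor plate markers 9 rose and 1 fell (100%, against 42.2% of the whole table), and their summed level ran from 589 to 767 CPM among wild-type and from 874 to 948 CPM among mutant libraries, without overlap. They included loxl5b (0.82), col8a1a (0.49) and col2a1a (0.38), which rose, and col9a1a, which fell by 1.41 on the log2 scale. The largest term of the notochord and floor plate sum was col2a1a, which rose from 366 ± 47.9 to 477 ± 18.7 CPM (SD, n = 5). Of the transcription factor genes in this list, ta and noto overlapped between groups, and foxa2 and foxa did not. Of 8 tested heart markers 5 fell and 1 rose (75.0%, against 42.2% of the whole table), among them myl7 (-0.73) and gata5 (0.51). The summed level of the heart list ran from 165 to 185 CPM among wild-type and from 173 to 207 CPM among mutant libraries, with overlap. The largest term of this sum was gata5, which rose from 87.9 ± 11.9 to 125 ± 7.78 CPM, so the sum does not show the 5 decreases. The next largest, vmhc, fell from 38.9 ± 5.11 to 29.6 ± 4.43 CPM. The part of these cells in the levels of agrn or the basal lamina genes was not tested.

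**Figure D5:**
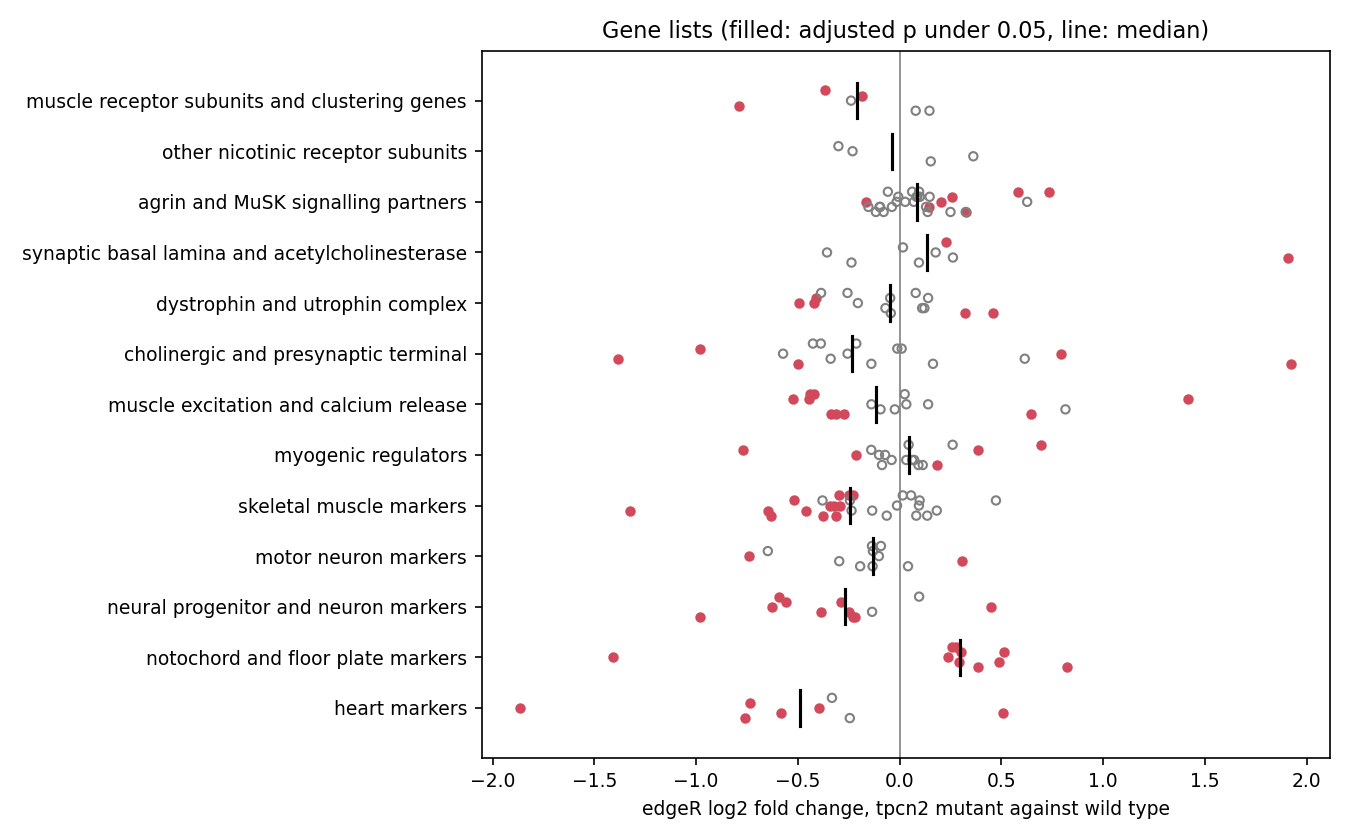
EdgeR log2 fold change (mutant against wild type, horizontal axis) of each tested gene, by list; filled points have an adjusted p under 0.05 and the black line is the list's median. In the first row chrna1 is the leftmost point, and the muscle markers lie mostly left of 0.

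The genes whose levels ran most like each member over the 10 libraries were found as those with the smallest root mean square difference of log2 CPM after each gene was centred on its mean. For chrna1 they were tmx2a (0.0897), a gene of a thioredoxin-related membrane protein, athl1 (0.139) and klhl41b (0.14), the gene of a kelch protein of the sarcomere. All 3 fell, by 0.80, 0.74 and 0.62 on the log2 scale, which follows from their choice by likeness over the same libraries. No other member was as close to chrna1, the nearest being musk at 0.312, but the 3 were picked as the closest of 10107 genes. For musk the most alike were dph7 (0.0526), naa20 (0.065) and cox20 (0.0662), and for chrnd snrnp70 (0.0465), chmp4bb (0.0492) and edf1 (0.0499). chrnb1 was closest to plp1a (0.07), fam13b (0.0746) and dnajc5aa (0.0856). rapsn was closest to bcl6ab (0.104), rffl (0.111) and sdprb (0.111), and agrn to znf609 (0.0432), vangl2 (0.047) and bmp2k (0.0502).

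In the gene order of the RefSeq annotation of GRCz12tu, which is not the build of these files and is used for order alone, chrnb1 is the single member on the chromosome of tpcn2, with 729 protein-coding genes between them, and chrnb1l is its immediate neighbour. The nearest tested neighbours of chrna1, ola1 and atp5g3b, were at log2 fold changes of 0.02 each, without passing (edgeR adjusted p = 0.791 and 0.77). Those of rapsn both passed in opposite directions, kbtbd4 rising by 0.55 and ighmbp2 falling by 0.39 (edgeR adjusted p = 0.00315 and 0.00139). musk lay between lpar1, which did not pass (0.12), and rassf6, which rose by 0.44 on the log2 scale (edgeR adjusted p = 0.167 and 0.00759).

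In the authors' deposited table chrna1 was at a log2 fold change of -0.75 (adjusted p = 6.71e-10), musk at -0.36 (1.93e-05) and chrnd at -0.18 (0.0367). In the authors' deposited table chrnb1 (-0.23, adjusted p = 0.0907), rapsn (0.14, 0.395) and agrn (0.08, 0.341) did not reach 0.05.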

How the data were processed

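RNA of whole embryos was sequenced in 10 libraries. The deposited counts are whole-number reads per gene symbol, not normalized. The submitters' processing notes name danRer10 and mm10 as builds, and list cutadapt 3.4, STAR 2.7 and DESeq2 1.30.0. The sources used here do not state how reads were counted, on which annotation or whether by strand, so reads of overlapping antisense genes cannot be told apart. Per the file headers, the authors' deposited comparison table gives a log2 fold change and a p-value per gene, with a score (test statistic and standard error) and a signal (mean of scaled counts) that were not used.

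Library sizes were adjusted by TMM, genes passed filterByExpr, and genotype was the single term of edgeR 4.0.16's quasi-likelihood fit (R 4.3.3), with Benjamini-Hochberg adjustment over all tested genes and a threshold of 0.05. Log2 CPM used a prior count of 2, and each SE is that of the difference between group means of log2 CPM. Intervals of 95% are from limma-voom 3.58.1 and are not adjusted. Ratios to the muscle markers were tested by exact permutation of libraries (scipy 1.17.1). The floor of 3 counts covers counting error only. Of the fits, the main edgeR fit alone was run on simulated counts. In these far fewer genes changed than were called here, as many up as down. The tests set the difference between groups against the spread between these samples.

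The members and lists were chosen with earlier results of these data known. Named were the 7 members, up to 3 genes per list and direction with the smallest p, set genes of the junction, and the 3 genes most like each member among those with a mean of at least 1 CPM. Alternatives were RLE factors, library size alone, DESeq2 1.42.0, limma-voom, 2 other filters, a prior count of 0.5, a replicate block, the mean of the muscle markers and each library left out. Results of the lists without wild-type replicate 1 were added after seeing the data.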

Additional observations from a re-analysis of the deposited data

Results flagged for a closer look

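In 2 of 34 sets of 5 values, each set holding 1 gene or ratio in 1 genotype, 1 library lay far from the others (its gap to the nearest value over the whole range was above Dixon's critical value of 0.71), which chance alone gives in about 5% of sets. For rapsn in wild type this share of the range was 0.841. Replicate 3 was at 6.69 CPM and the other wild-type libraries at 8.82 to 9.23 CPM, and without it the log2 fold change of rapsn went from 0.15 to 0.07 (edgeR adjusted p = 0.678). For the log2 ratio of chrnb1 to the muscle markers in wild type it was 0.768. Replicate 1 was at -3.33 and the others at -2.90 to -2.78, and without it the difference between genotypes went from 0.11 to 0.02.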

How the results depend on the processing

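The number of genes called lay between 4484 and 5312 under all 17 alternatives (5011 as reported), and scaling moved the median log2 fold change of all genes by less than 0.01. The log2 fold changes of chrna1 (-0.86 to -0.71) and musk (-0.41 to -0.33) passed under all 17 alternatives, and those of chrnb1, rapsn and agrn kept their sign and passed under none. Without 1 library each, chrnb1 lay between -0.28 and -0.14, rapsn between 0.07 and 0.21 and agrn between 0.05 and 0.12. Over the 10 fits without 1 library chrnd lay between -0.21 and -0.15, and it lost its call in 7 of them. It also lost its call with no filter on low counts (-0.18, edgeR adjusted p = 0.055) and with the replicate block (-0.18, edgeR adjusted p = 0.0817). The cause was not tested for chrnd.

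Same-numbered libraries did not deviate together (correlations across genes of -0.06 to 0.07), so the numbers were not taken to pair the samples. As a replicate block for the ratios, the 5 paired differences allow no exact p below 0.0625, so no ratio to the muscle markers could pass; ratios to chrna1 are descriptions. The differences under the block are the same values, 0.56 for chrnb1, 0.61 for chrnd, 0.42 for musk, 0.93 for rapsn and 0.87 for agrn relative to chrna1, and 0.48 for rapsn relative to the muscle markers.

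Leaving out 1 library gave ratios to chrna1 of 0.49 to 0.63 for chrnb1, 0.55 to 0.65 for chrnd, 0.31 to 0.52 for musk, 0.89 to 0.98 for rapsn and 0.78 to 0.94 for agrn. Relative to the muscle markers the ranges were -0.54 to -0.37 for chrna1, 0.02 to 0.15 for chrnb1, 0.09 to 0.24 for chrnd, -0.14 to 0.07 for musk, 0.41 to 0.55 for rapsn and 0.33 to 0.51 for agrn. That of musk changed sign without wild-type replicate 3 (0.068) or 5 (0.041). With the mean of the markers chrna1 passed (-0.58) and the chrnb1 difference changed sign (-0.014). Those of chrnd (0.03), rapsn (0.35) and agrn (0.29) were smaller than with the median, and rapsn passed again. That of musk was -0.15. The chrna1 ratio also passed without wild-type replicate 1, and under no other of its 13 alternatives. The cause was not tested. For rapsn, with 125 to 223 reads per library, counting error alone gives a coefficient of variation of 7.62% (wild type) and 7.33% (mutant), below the observed 12.1% and 14.6%.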
